A study of Rattus norvegicus with 6 samples.

Results

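A set of 9 genes that build or bind the contractile actin cytoskeleton was followed in rat bone marrow cultures, some of which received low-intensity pulsed ultrasound (LIPUS), short bursts of sound that act on cells mechanically. The genes, taken by rat symbol, were Acta2, Tagln, Cnn1, Actg2, Myl9, Tpm1, Tpm2, Des and Actn1. A probe belonged to them when its accession, without the version, mapped to 1 of these symbols. This gave 14 probes for 7 of the 9 genes, among 41012 gene probes on the array. Acta2 and Myl9 had no probe under this rule. The single Cnn1 probe was above background on 0 of 6 arrays and was not tested, so 13 probes of 6 genes were tested, among 23260 probes above background.

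The samples were cells from the marrow of male rats aged 8 weeks, kept under osteogenic conditions and taken on day 10. Both groups shared sex, age, culture conditions and day, and differed in the label for treatment: none in the 3 control samples and LIPUS in the other 3. Total RNA of each sample was labelled with Cy3 and hybridised to a single-colour Agilent array of its own. The labels leave it unstated whether replicates are different animals, dishes or repeats of 1 extract, so a p-value here reflects the spread between these samples, which may be technical.

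In a contracting cell, actin filaments slide past myosin, and the other proteins hold that filament system together or regulate it. A fibroblast that takes on such a system, with stress fibres rich in smooth muscle actin, is called a myofibroblast. Acta2 and Actg2 encode the vascular and enteric smooth muscle actins, Tagln (transgelin, SM22) and Cnn1 (calponin) bind the filament, and Myl9 is a regulatory light chain of myosin. The tropomyosins Tpm1 and Tpm2 lie along the filament, Des (desmin) forms muscle intermediate filaments, and Actn1 (alpha-actinin) crosslinks filaments and anchors stress fibres.

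The background cut-off, set from negative control spots, was passed by 53.5% to 61.9% of probes per array, and correlations between arrays across probes, which are not independent replicates, were 0.964 to 0.986. The scanned grid had a larger tilt on control 1 and control 2 than on control 3 and the 3 LIPUS arrays (slope 0.0925 and 0.0943 against 0.0522 to 0.0601). What this tilt stands for is not given in the sources used here. Values within the lower-tilt arrays are therefore given as LIPUS minus control 3. Both arrays with the larger tilt were controls, so a fit with the tilt set as a block also compares LIPUS with control 3 alone. In that fit control 1 and control 2 add only to the estimate of spread. Markers of other cells differed between the groups. Of the macrophage markers 7 of 11 measured genes fell, and the other 4 reached the scanner limit on at least 3 arrays each. The summed brightness of the same 7, the only ones under the limit throughout, was 194 to 212 times the array's 75th percentile in control. In LIPUS it was 58.8 to 75.9 times. All 5 measured proliferation genes and 3 of 4 endothelial markers fell. Of 12 osteoblast markers 5 rose, and 4 of the 12 reached the scanner limit on each of the 6 arrays (7 of 12 rose in the authors' value table). Of 8 stromal fibroblast markers Dcn and Lum rose and Lepr and Vcam1 fell. Over all probes 2.86% were called higher and 3.65% lower. With the tilt set as a block, 5 macrophage, 3 osteoblast and 1 endothelial marker were still called and 0 proliferation genes were. Of the proliferation genes, Birc5 went from −0.99 without the block to −0.66 with it, and Cdk1 from −0.99 to −0.79. Ccnb2 stood at −1.07 without the block and −1.08 with it, and none of the rest came closer to 0. The part of these shifts in the values given here was not tested.

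Contractile genes showed small differences in both directions, and none of their readable probes passed the test. Transgelin and enteric actin were lower in LIPUS on every array, by 1.22-fold and 1.46-fold, while 3 of 4 Tpm1 probes and 1 Tpm2 probe were higher on every array. By limma with Benjamini-Hochberg adjustment over all 23260 probes, 0 of the 12 probes under the scanner limit were called, against 6.51% of all probes (1515, of which 666, or 2.86%, were higher and 849, or 3.65%, lower). At an unadjusted p under 0.05 the count was 4 of 12, against 22.1% of all probes. Groups did not overlap for 7 of 12, against 27.2% of all probes. LIPUS lay above control for 5 of them and below for 2, against 14.5% and 12.7% of all probes, and 5 of the 7 probes belonged to Tpm1, Tpm2 or Actn1, where several probes share a gene. The median difference was 0.17 on the log2 scale over the 12 probes and 0.04 over all probes. The smallest difference called among all probes in the same fit was 0.59, or 1.51-fold, which is larger than any of the 12 differences.

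**Figure D1:**
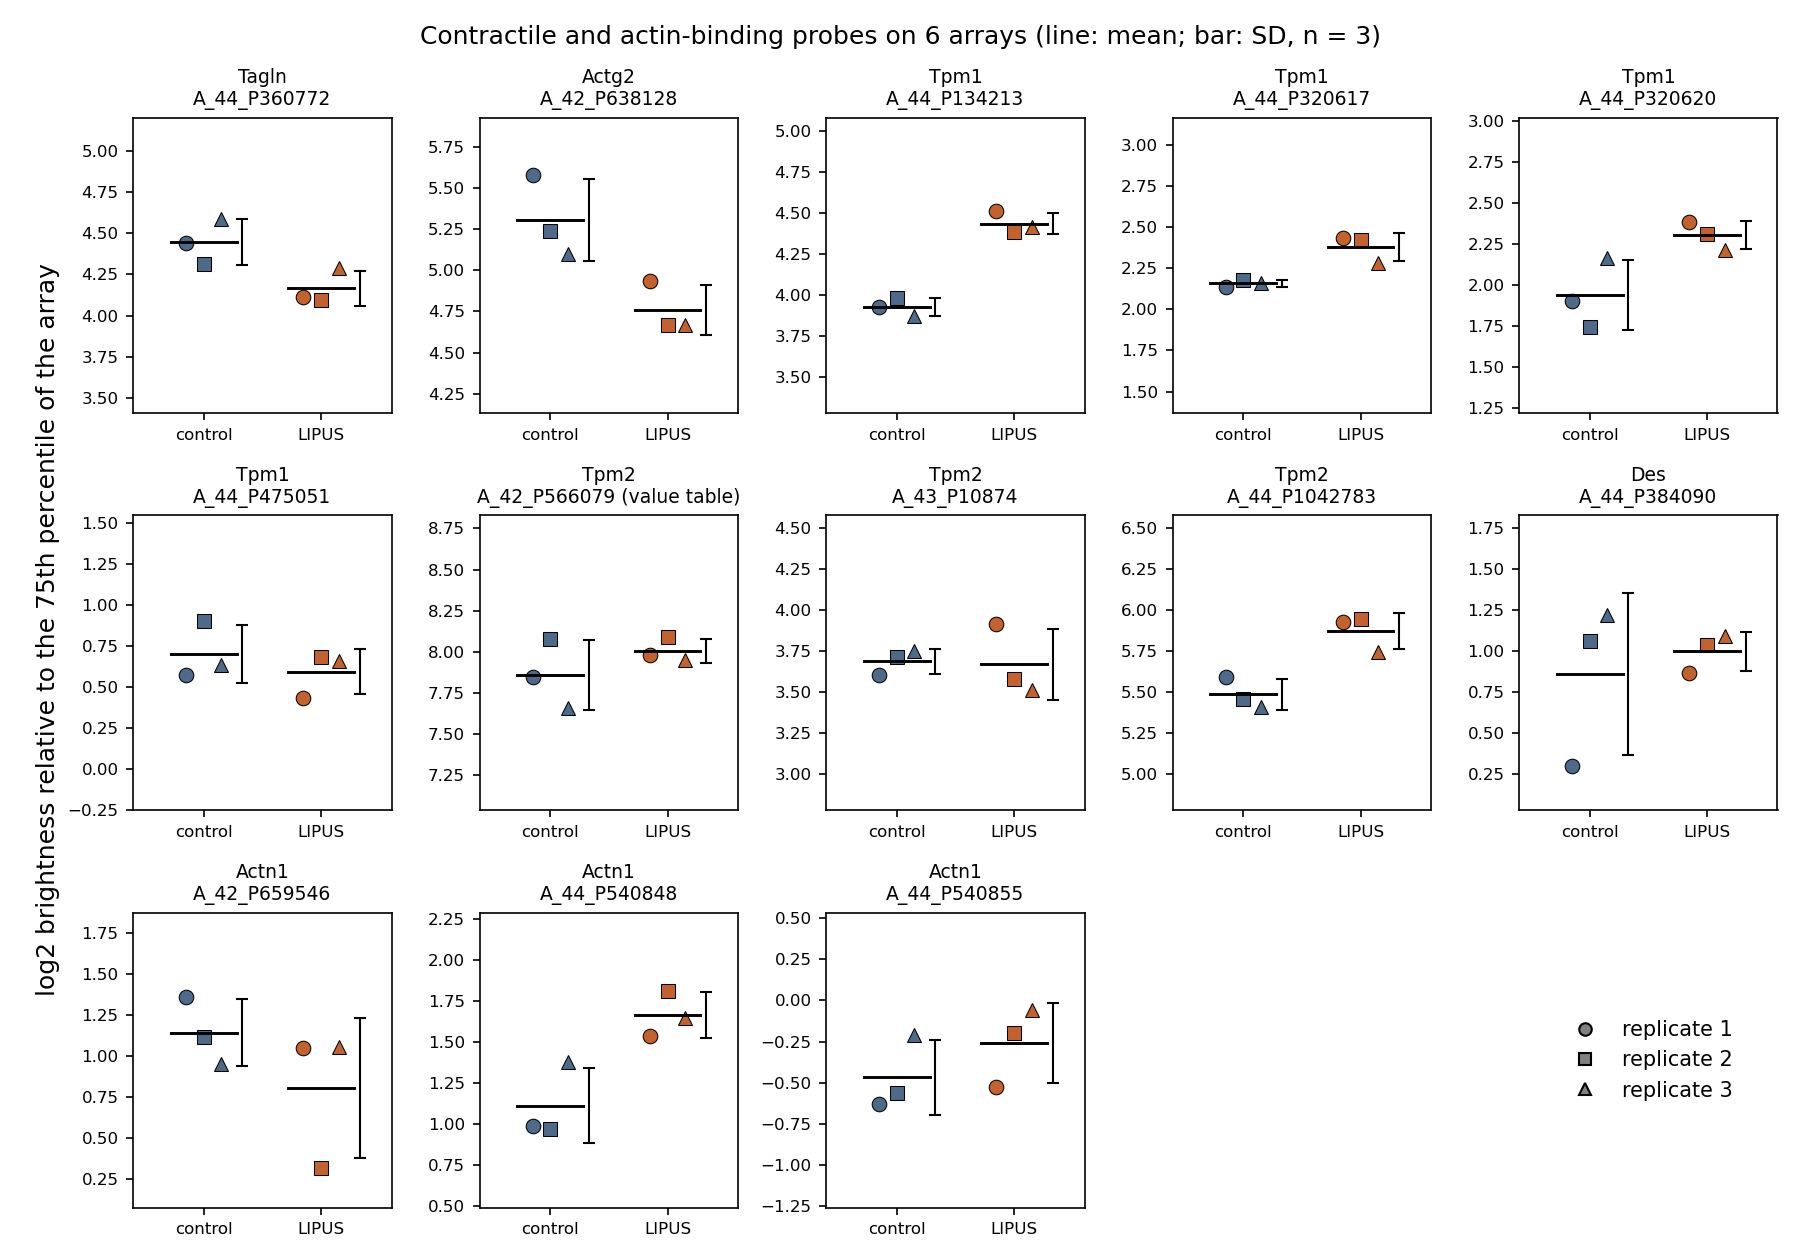
Each panel shows 1 probe, with the log2 brightness relative to the array's 75th percentile on the vertical axis and the 3 control and 3 LIPUS arrays as points (line, mean; bar, SD, n = 3); all panels span the same range of log2 units. Tagln and Actg2 lie lower on all LIPUS arrays and Tpm1 A_44_P134213 lies higher, while Tpm1 A_44_P475051 and Des overlap; the Tpm2 probe at the scanner limit is drawn from the value table.

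Acta2, the usual marker of a myofibroblast, could not be read, and Cnn1 was near background. The Cnn1 spots read 94, 128 and 103 units of brightness in control and 74, 113 and 63 in LIPUS, against local backgrounds of 45 to 54. No spot passed its array's background cut-off, so no difference is given. The most specific smooth muscle markers were not informative either: Myh11, the smooth muscle myosin heavy chain, and Lmod1 had no probe, and Kcnmb1 was below background. Whether cells with a full smooth muscle programme were present was not tested.

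Actg2, the enteric smooth muscle actin, was among the brighter probes and was lower in LIPUS. Its spots read 44486, 28379 and 35746 in control and 25597, 17564 and 19263 in LIPUS. Relative to the 75th percentile of its array, which is how log2 values are given below, the probe stood at 5.58, 5.24 and 5.10 in control and at 4.94, 4.67 and 4.67 in LIPUS. The groups did not overlap, and the highest LIPUS array lay just under the lowest control array. The log2 difference was −0.55 with a standard error (SE) of 0.18 and a 95% interval of −0.96 to −0.14 (limma adjusted p = 0.114). Against control 3 alone the difference was −0.34. The authors' value table, a second source of values for the same arrays, gave −0.36 (limma adjusted p = 0.303). There control 3, at 5.09, lay just above LIPUS, at 5.04, 4.91 and 5.04, and the difference against control 3 alone was −0.09.

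Tagln, which encodes the actin-binding protein transgelin, moved the same way by less. It stood at 4.44, 4.31 and 4.59 in control and at 4.11, 4.09 and 4.29 in LIPUS. Each LIPUS array lay under each control array, LIPUS 3 and control 2 being close. The log2 difference was −0.28 ± 0.16 (SE), with an interval of −0.64 to 0.08 (limma adjusted p = 0.343). Against control 3 alone it was −0.43, and in the value table −0.42 (limma adjusted p = 0.201).

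Tpm1 had 4 probes, 1 designed to NM_001034069 and 3 to NM_019131, and their log2 differences ran from −0.11 to 0.51. The probe to NM_001034069, A_44_P134213, stood at 3.93, 3.98 and 3.87 in control and at 4.51, 4.38 and 4.41 in LIPUS. All LIPUS arrays were clearly above all control arrays, and the spread within each group was small (SD 0.06 and 0.07, n = 3). The log2 difference was 0.51 ± 0.15 (SE), or 1.42-fold with an interval of 1.12 to 1.80. It had the smallest p among the contractile probes and did not pass (limma adjusted p = 0.0809). It was 0.56 against control 3 alone and 0.59 in the value table (limma adjusted p = 0.0743). The probe did pass under quantile normalization (limma adjusted p = 0.0306) and when only probes above background on all arrays were tested (limma adjusted p = 0.0454).

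The other Tpm1 probes were dimmer. A_44_P320617 stood at 2.14, 2.18 and 2.16 in control and at 2.43, 2.42 and 2.29 in LIPUS, a difference of 0.22 ± 0.15 (SE; limma adjusted p = 0.430). A_44_P320620 stood at 1.90, 1.74 and 2.16 in control and at 2.39, 2.31 and 2.21 in LIPUS, a difference of 0.37 ± 0.17 (SE; limma adjusted p = 0.244). Both had all LIPUS arrays above all control arrays, although control 3 came close to the lowest LIPUS array on A_44_P320620. A_44_P475051 stood at 0.57, 0.90 and 0.64 in control and at 0.43, 0.69 and 0.66 in LIPUS, and its groups overlapped (−0.11 ± 0.17, SE; limma adjusted p = 0.746). Its change differed from that of A_44_P134213 by 0.62 log2 units. An exact permutation test of that difference, two-sided, gave p = 0.1, the smallest that 3 arrays against 3 allow, and 0.143 after adjustment over the 10 pairs of probes of 1 gene that were compared. A_44_P475051 in the value table stood at 0.07 (limma adjusted p = 0.869) and the other probes at 0.36 and 0.47 (limma adjusted p = 0.219 and 0.188).

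Tpm2 had 3 probes, all designed to NM_001024345. The brightest, A_42_P566079, was at the scanner limit of 65535 on all 6 arrays, with 73% to 97% of its pixels at that limit, so the spot tables give no difference for it. The authors' log2 values carry no such percentage. If the lowest value of each column is taken as 1 unit of brightness, this probe came to 48.9% to 72.6% of the limit. That scale is an assumption, on which 98.7% to 98.9% of each column's values were whole numbers. There it stood at 7.84, 8.08 and 7.65 in control and at 7.98, 8.09 and 7.95 in LIPUS. The groups overlapped, and the log2 difference was 0.15 ± 0.17 (SE), with an interval of −0.26 to 0.55 (limma adjusted p = 0.658).

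The second Tpm2 probe, A_44_P1042783, stood at 5.60, 5.46 and 5.41 in control and at 5.93, 5.95 and 5.75 in LIPUS. Its groups did not overlap, and the difference was 0.39 ± 0.16 (SE), or 1.31-fold (limma adjusted p = 0.185). The value table gave 0.43 (limma adjusted p = 0.161). The third probe, A_43_P10874, stood at 3.60, 3.72 and 3.75 in control and at 3.92, 3.58 and 3.51 in LIPUS. LIPUS 1 was the highest and the other LIPUS arrays were the lowest, and the difference was −0.02 ± 0.17 (SE; limma adjusted p = 0.961). The value table had the same probe higher on all LIPUS arrays, at 4.12, 4.10 and 4.10 against 3.42, 3.91 and 3.57 in control, a difference of 0.47 (limma adjusted p = 0.197). For this probe the 2 sources differ in sign, and the cause was not tested.

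Des, which encodes the intermediate filament protein desmin, showed no separation. It stood at 0.30, 1.07 and 1.22 in control and at 0.87, 1.04 and 1.09 in LIPUS. Control 1 lay well below the other 5 arrays, and the LIPUS values fell inside the control range. The log2 difference was 0.14 ± 0.24 (SE), with an interval of −0.40 to 0.67 (limma adjusted p = 0.778). Without control 1 it was −0.14 and against control 3 alone −0.22, so its direction rests on that array.

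Actn1 had 3 probes, all designed to NM_031005, and their differences ran both ways. A_44_P540848 stood at 0.99, 0.97 and 1.38 in control and at 1.54, 1.81 and 1.64 in LIPUS. All LIPUS arrays were above all control arrays, with control 3 the nearest. The difference was 0.55 ± 0.18 (SE), or 1.47-fold (limma adjusted p = 0.103). Without control 3 it was 0.68 and passed (limma adjusted p = 0.0392), and against control 3 alone it was 0.29. The value table had control 3 at the LIPUS level on this probe, 1.98 against 0.78 and 1.06 in the other controls and 1.77, 1.90 and 2.01 in LIPUS. The difference there was 0.62 over all arrays (limma adjusted p = 0.333) and −0.09 against control 3 alone, so the direction turned.

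A_42_P659546 ran lower, at 1.36, 1.11 and 0.95 in control and 1.05, 0.31 and 1.06 in LIPUS. LIPUS 2 stood far below the rest, the other LIPUS arrays lay inside the control range, and the difference was −0.34 ± 0.23 (SE; limma adjusted p = 0.433). Without LIPUS 2 it was −0.09. A_44_P540855 was the dimmest of the tested probes, at −0.63, −0.56 and −0.21 in control and −0.53, −0.20 and −0.06 in LIPUS. Its groups overlapped, and the difference was 0.21 ± 0.19 (SE; limma adjusted p = 0.564) here and 0.78 in the value table (limma adjusted p = 0.235). The changes of A_42_P659546 and A_44_P540848 differed by 0.89 log2 units (exact permutation test, two-sided, p = 0.1, adjusted 0.143).

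**Figure D2:**
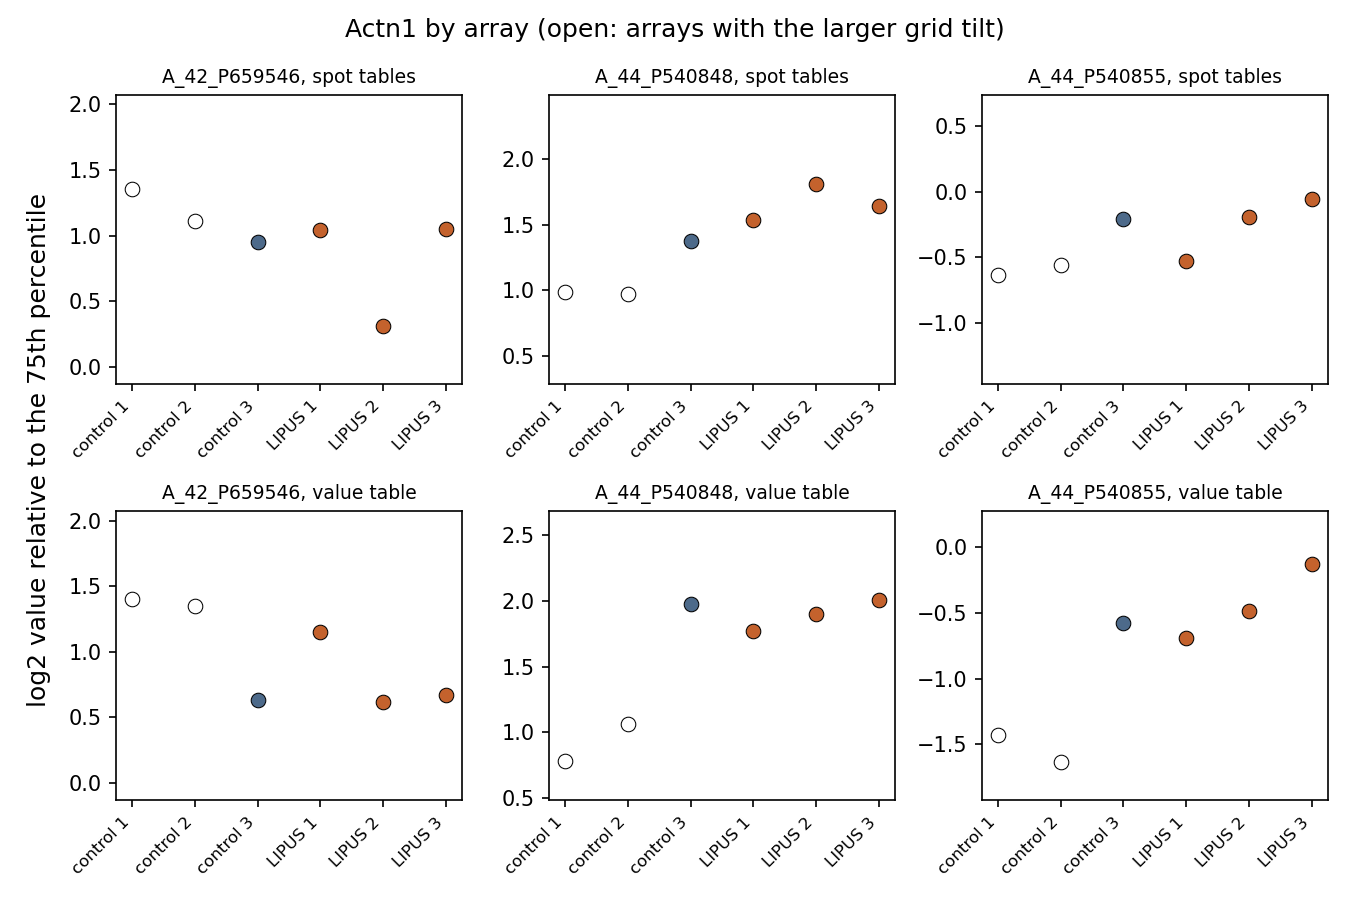
Each panel shows 1 Actn1 probe in 1 source, with the 6 arrays on the horizontal axis and the log2 value relative to the 75th percentile on the vertical axis; open points are the control arrays with the larger grid tilt. On A_44_P540848 control 3 lies between the other controls and LIPUS in the spot tables and at the LIPUS level, 1.98, in the value table.

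By the authors' values 0 of the 13 probes were called, against 3.67% of all probes (1.32% higher and 2.36% lower), 7 of 13 had an unadjusted p under 0.05, against 21.2%, and 7 of 13 had groups that did not overlap, against 28.6%. Differences for 10 of the 13 probes lay above 0 there, with a median of 0.36, against −0.03 over all probes. The value table comes from the same arrays and is no independent evidence. Signs differed between the sources for Tpm1 A_44_P475051 and Tpm2 A_43_P10874.

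**Figure D3:**
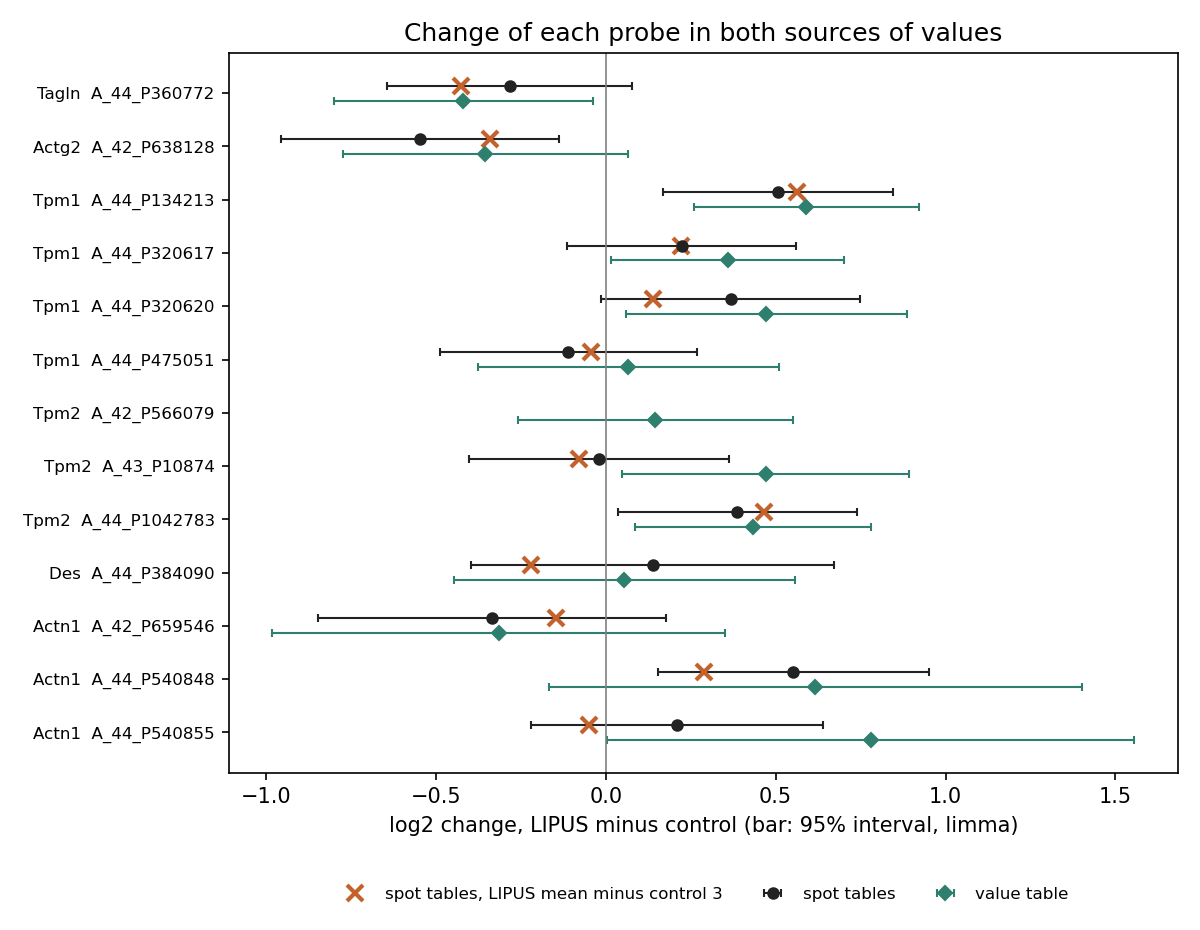
Points give the log2 difference, LIPUS minus control, of each probe from the spot tables (circles) and the value table (diamonds), with 95% intervals from limma; crosses give the LIPUS mean minus control 3 in the spot tables. Tagln and Actg2 lie left of 0 and Tpm1 A_44_P134213 right of 0 in both sources and against control 3, and the Tpm2 probe at the scanner limit has a value table point only.

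The choice of scale sets where 0 lies for these small differences. Scaling to spike-in control probes shifted the median of all probes from 0.04 to −0.31. Under it Actg2 was called lower, at −0.90 (limma adjusted p = 0.0110), the Tpm1 probe A_44_P134213 stood at 0.16, and Tpm1 A_44_P320617, Des and Actn1 A_44_P540855 turned to −0.13, −0.21 and −0.14. The order of the probes, with Actg2 and Tagln below the tropomyosins and Actn1 A_44_P540848, does not depend on a shift shared by all probes.

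Promoter sequences are shown for Tpm1 and Actg2, the genes with the smallest p on either side of 0, because many smooth muscle genes are driven through the CArG box, the site of serum response factor (SRF). Each run holds the 250 bases before the start that RefSeq's table of rat assembly GRCr8 uses, written 5′ to 3′ on the gene's strand, with matches to the CArG box at up to 1 changed base in capitals. Tpm1 lies on the minus strand at chr8:76543416-76543665 and Actg2 on the minus strand at chr4:117594040-117594289. For both genes RefSeq's gene model reaches further upstream than this start. For Tpm1 it ends at position 76543661, within the window, so both Tpm1 matches lie inside the gene model. For Actg2 it runs on to 117604379, so the window lies inside the gene model. Sequence before that outer end was not searched, and the Actg2 window cannot show whether a CArG box lies there.
Tpm1: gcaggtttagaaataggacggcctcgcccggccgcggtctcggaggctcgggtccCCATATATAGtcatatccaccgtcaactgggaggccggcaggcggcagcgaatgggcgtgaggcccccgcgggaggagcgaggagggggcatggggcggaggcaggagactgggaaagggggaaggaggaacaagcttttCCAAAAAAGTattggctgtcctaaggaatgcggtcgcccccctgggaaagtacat
Actg2: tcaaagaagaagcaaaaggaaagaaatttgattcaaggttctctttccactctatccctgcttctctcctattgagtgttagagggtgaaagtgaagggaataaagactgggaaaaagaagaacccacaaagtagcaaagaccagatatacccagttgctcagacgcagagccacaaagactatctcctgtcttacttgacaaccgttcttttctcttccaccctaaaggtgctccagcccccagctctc
Of the 9 genes 7 had an entry, all but Tagln and Myl9. An exact CArG box was found in 0 of 7 windows, against 1.50% of 33469 rat promoters, searched on both strands. With up to 1 change it was found in 2, Acta2 and Tpm1, against 18.7% of promoters. The Tpm1 matches begin 195 and 55 bases before the start. CATTCC, the MCAT element bound by TEAD factors, was found on either strand in the same 2 windows, against 12.1% of promoters. These are descriptions of the letters in 1 window per gene. The Actg2 and Tpm2 windows lie wholly inside RefSeq's gene models, the Tpm1 window nearly so and the Actn1 window in part.

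Related genes, from lists chosen with earlier results of these data known, are given next by counts and medians. The probe with the highest mean stands for a gene. Over the 5 lists 2 of 84 measured genes rose and 2 fell, near the 2.86% and 3.65% of all probes called in each direction. Of 10 measured actin isoforms and paralogues of the contractile genes, 0 rose and 0 fell, with a median of 0.04. Actc1, cardiac actin, stood at 0.69 (limma adjusted p = 0.0676), and Nes, which encodes the intermediate filament protein nestin, at −0.68 (limma adjusted p = 0.0803). Tpm3, a cytoskeletal tropomyosin, stood at −0.46 and its other probes at −0.15 to −0.16, and the calponin Cnn3 stood at −0.41 (limma adjusted p = 0.114 for Tpm3 and 0.242 for Cnn3).

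Of 13 measured genes of non-muscle and smooth muscle myosin and its regulators, 1 rose and 1 fell, with a median of −0.03. These were both calmodulin genes, encoding the calcium sensor that activates myosin light chain kinase. Calm2 rose from 5.53, 5.32 and 5.24 in control to 6.08, 6.09 and 6.13 in LIPUS, by 0.74 ± 0.16 (SE; limma adjusted p = 0.0236). Calm3 fell from 5.54, 5.42 and 4.86 to 4.48, 4.34 and 4.26, by 0.92 on the log2 scale (limma adjusted p = 0.0280), and its other probe stood at −0.78. Each gene had all arrays of 1 group on 1 side of the other. Cald1 (caldesmon), which binds actin and tropomyosin, stood at 0.41 (limma adjusted p = 0.165). Mylk, the kinase itself, had no probe. The summed brightness of the 13 genes was 134.5 to 163.7 in control and 156.5 to 157.8 in LIPUS, and the groups overlapped.

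Of 27 measured genes of actin crosslinking, capping and turnover, 0 rose and 1 fell. The median was 0.03, or 0.01 over the 23 under the limit throughout. The summed brightness of these 23 was 258.3 to 276.2 in control and 236.6 to 247.7 in LIPUS, without overlap. Coro1a, a coronin of blood cells, fell from 2.58, 2.84 and 2.89 to 1.82, 1.95 and 2.07, by 0.83 (limma adjusted p = 0.0184). It fell beside the macrophage markers, and their part in it was not tested. Pfn2, a profilin that binds actin monomers, stood at −0.55 (limma adjusted p = 0.0850), and Dstn, the depolymerizing factor destrin, at 0.54 (limma adjusted p = 0.0940). Of 13 measured genes of focal adhesions and stress fibre anchors, 1 rose and 0 fell, with a median of −0.00. Their summed brightness was higher in LIPUS, at 90.1 to 94.5 against 80.1 to 83.5 in control, without overlap. Pdlim5, a PDZ and LIM protein that binds alpha-actinin, rose from 2.85, 2.80 and 2.82 to 3.40, 3.68 and 3.37, by 0.66 ± 0.16 (SE; limma adjusted p = 0.0396), and its other probe stood at 0.62. Its relatives Pdlim4 and Pdlim1 stood at −0.59 and −0.54 (limma adjusted p = 0.0634 and 0.109), and the adaptor Bcar1 at 0.84 (limma adjusted p = 0.0847).

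Of 21 measured regulators and targets of SRF, transforming growth factor beta and YAP, 0 rose and 0 fell. The median was 0.18, or 0.11 over the 20 under the limit throughout. The summed brightness of these 20 was 42.0 to 47.7 in control and 43.9 to 50.7 in LIPUS, and the groups overlapped. Srf, Mrtfa, Mrtfb and Yap1 had no probe. Tgfb1, the growth factor best known for inducing myofibroblasts, stood at −0.75, −0.55 and 0.04 in control and −0.02, 0.32 and 0.18 in LIPUS (0.58; limma adjusted p = 0.162). Control 3 overlapped LIPUS. Its inhibitor Smad7 stood at 0.51 (limma adjusted p = 0.117). Wwtr1 (TAZ), a partner of YAP, stood at 0.62 (limma adjusted p = 0.173) and its other probe at −0.06, and Agtr1a, an angiotensin receptor, at 0.51 (limma adjusted p = 0.128) and its other probe at −0.44.

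None of the 4 calls in these lists passed with the tilt set as a block (limma adjusted p = 0.0888 for Calm2, 0.265 for Calm3, 0.0895 for Coro1a and 0.183 for Pdlim5). The log2 differences there, which rest on control 3 as the only control, were 0.86 for Calm2, −0.95 for Coro1a and 0.67 for Pdlim5. These were as large as without the block or larger, and Calm3 stood at −0.50. Some genes that did not pass had much smaller differences with that block, −0.04 for Cnn3, 0.11 for Tgfb1 and 0.09 for Wwtr1. In the value table Calm2 passed and the other 3 did not (limma adjusted p = 0.0332 for Calm2, 0.0842 for Calm3, 0.116 for Coro1a and 0.0791 for Pdlim5), while Bcar1, at 1.09, and Agtr1a, at 0.78, passed there (limma adjusted p = 0.0333 and 0.0440). Calm2 was also lost without control 2 or any 1 LIPUS array, Coro1a without control 2, LIPUS 1 or LIPUS 2, and Calm3 and Pdlim5 without any 1 array other than control 3. The highest adjusted p on leaving out 1 array was 0.0848 for Calm2, 0.110 for Calm3, 0.0785 for Coro1a and 0.148 for Pdlim5. Scaled to spike-in probes, the rises of Calm2 and Pdlim5 were 0.39 and 0.31 and did not pass (limma adjusted p = 0.244 and 0.344).

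**Figure D4:**
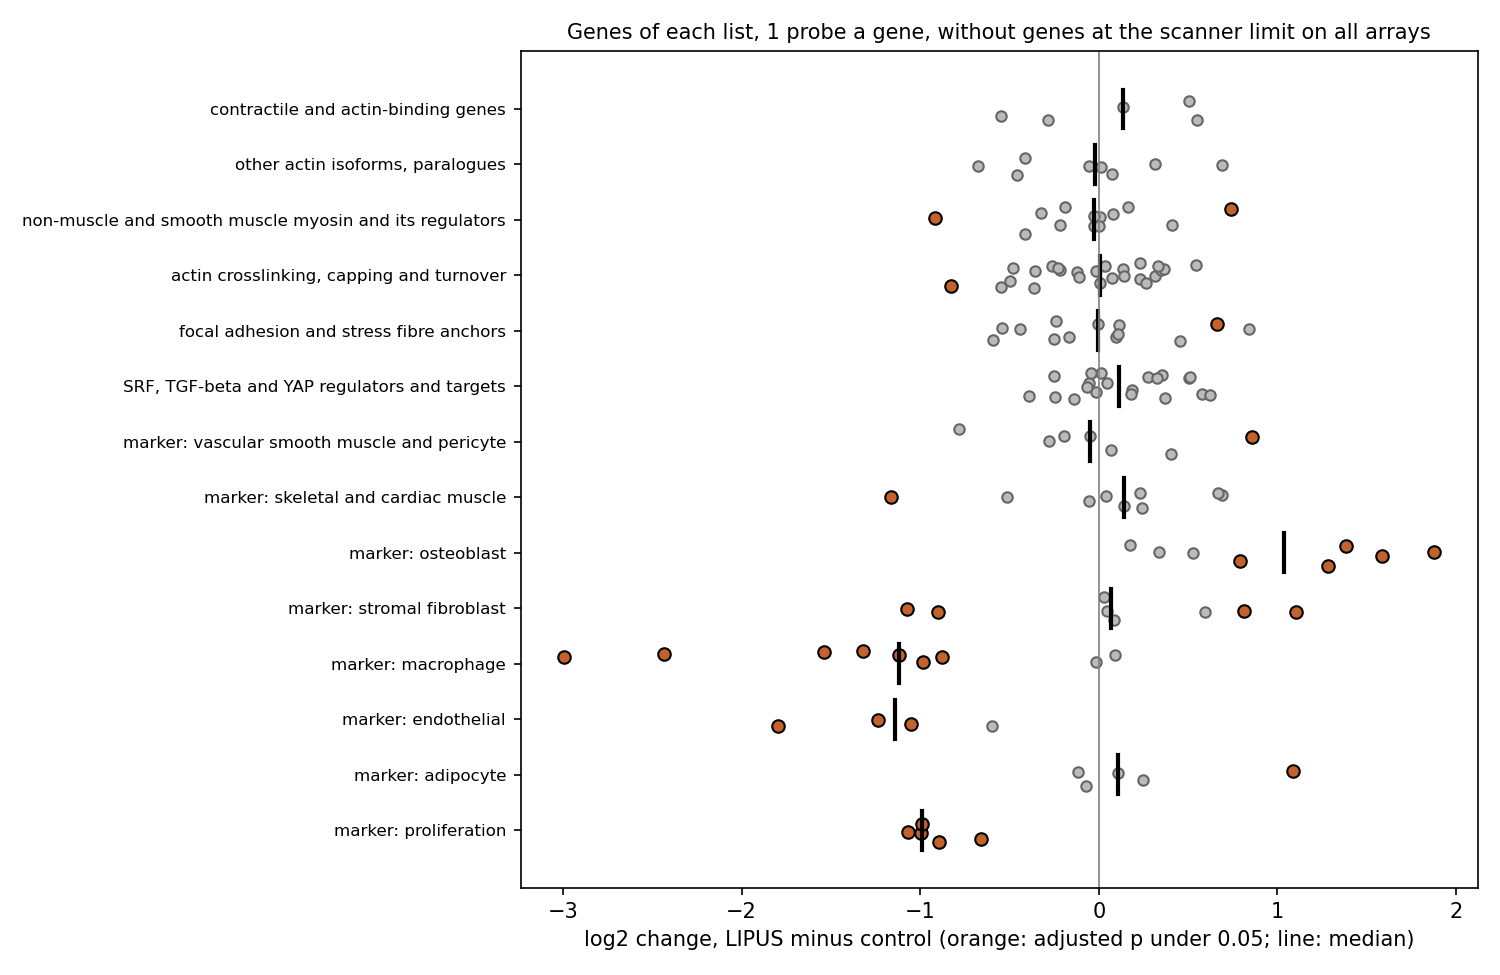
Each row is a gene list and each point a gene, by log2 difference, LIPUS minus control, with called genes in orange and the list's median as a line, leaving out genes at the scanner limit on all arrays. The contractile and actin-binding genes and their relatives spread around 0, while macrophage, endothelial and proliferation markers lie mostly left of 0 and osteoblast markers right of it.

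Markers of muscle and mural cells gave little. Of 7 measured smooth muscle and pericyte markers, 1 rose and 0 fell. Abcc9, a subunit of potassium channels in pericytes, rose by 0.86 (limma adjusted p = 0.0204). With the tilt set as a block it stood at 0.88 and did not pass (limma adjusted p = 0.143), nor did it pass in the value table, at 0.61 (limma adjusted p = 0.486), or without LIPUS 2 (limma adjusted p = 0.0871), control 1 or LIPUS 1. Rgs5, another pericyte gene, stood at −0.78 (limma adjusted p = 0.0507). The summed level of these markers was 80.3 to 94.9 in control and 84.3 to 88.6 in LIPUS, so the groups overlapped. Bright genes dominate this sum, and Abcc9 and Rgs5, with control means of −1.36 and −0.39, add little to it. Of 28 skeletal and cardiac muscle markers, 9 were measured and 9 others with probes, Myod1, Myog and Ckm among them, were below background. Of the 9 measured, 6 had differences above 0, with a median of 0.14. Their summed level was 5.51 to 6.88 in control and 7.29 to 7.99 in LIPUS, so the groups did not overlap. Actc1, the brightest of them, weighs most in that sum. One of the 9 measured, Tnnt1, a slow muscle troponin, fell by 1.16 (limma adjusted p = 0.0057). Tnnt1 was dim, above background on 3 control and 2 LIPUS arrays. It stood at −1.33 with the tilt set as a block and −1.32 in the value table, and passed in neither (limma adjusted p = 0.0524 and 0.223). The summed level of the 6 measured contractile genes, taken from the brightest probe of each under the scanner limit, was 120.4 to 136 in control and 125 to 136 in LIPUS, so the groups overlapped. Without Tpm2 the sum of the other 5 was 77.5 to 88.0 in control and 68.9 to 75.4 in LIPUS, and the groups did not overlap. The overlap thus rests on Tpm2, whose probe was higher in LIPUS while Actg2 was lower. Actg2 has the highest control mean of the other 5 (5.31) and weighs most in their sum, which largely repeats the difference of that probe. In bulk RNA, fewer cells of a type and less RNA per cell cannot be told apart.

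Among genes with a symbol, the pattern most like that of the contractile probe with the widest range over the 6 arrays, Actn1 A_42_P659546 (1.04 log2 units), was that of Pon2, Anxa7, Enpp3, Rgs2 and Utp25. Pearson's r over the 6 arrays was 0.992, 0.991, 0.990, 0.983 and 0.979. These values share the arrays and their scaling, and the likeness is a description.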

How the data were processed

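Each of the 6 samples has 1 single-colour array. Per the file headers, the deposited spot tables give spot and background intensity up to a limit of 65535, the percent of pixels at that limit, and signal-to-noise and spot quality as a score, with no normalization. The value table deposited by the authors was found from its values to be log2, with a 75th percentile of 0 in every column and column medians of −2.37, −2.49, −2.53, −2.49, −2.62 and −2.85. A comparison with the spot tables (r 0.956 to 0.977 across probes) shows that higher means brighter, and how it was made stays unknown. The scanner was not given in the sources used here.

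The plan assumed Agilent's processed signal and background flag, which these tables lack. In their place, normexp (offset 50) was applied to the spot median and local background median, followed by log2, averaging of spots per probe and subtraction of the array's 75th percentile over gene probes. The background cut-off was the 95th percentile over 153 negative control spots, exceeded on at least 3 of 6 arrays. Symbols came from RefSeq (GRCr8, names only): 10768 of 41012 probes had one.

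Groups were compared with limma 3.58.1 in R 4.3.3 (lmFit, eBayes, group as the only term, two-sided), with a call at p under 0.05 after Benjamini-Hochberg adjustment. The procedure was tested on simulated data. The members and lists were chosen with earlier results of these data known. By rule, the text may name all probes of the 9 genes, up to 4 genes with the smallest p per related list and 3 per marker list, and the 5 genes most like the widest-ranging probe; Lepr, Myod1, Myog, Ckm and genes without a usable probe are named outside it. Alternatives covered background, scaling, filter, saturated probes, probe choice, source, tilt block, replicate block and each array left out. The number of arrays limits the precision. Figures used matplotlib 3.10.9 in Python 3.11.15.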

Additional observations from a re-analysis of the deposited data

How the results depend on the processing

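Of all probes in the spot tables, 1515 were called. The count was 3910 under scaling to spike-in controls (5.27% higher in LIPUS, against 44.0%), 686 with no filter on dim probes, 854 from the authors' values, 289 with the tilt set as a fixed block, 0 with only the 4 arrays of the lower tilt set (limma; 3527 at an unadjusted p under 0.05) and 670 to 2288 with 1 array left out. The lower tilt set was chosen after seeing the data and has 1 control, and the tilt block likewise compares LIPUS with that control. Scaling to the array median gave 1512, with 32.4% higher. Probes of the 9 genes called higher numbered 1 under quantile normalization, 1 with probes above background on all arrays and 0 to 1 with 1 array left out, and called lower 1 under spike-in scaling. From the authors' values 854 were called, and 0 (limma; unadjusted 5337, 3543, 4369 and 3006) with no filter, the tilt block, the replicate block and the lower tilt set, and 0 to 642 with 1 array left out (0 without control 1 or control 2; unadjusted 3509 and 3818).

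Signs turned as follows. Tpm2 A_43_P10874 (−0.02) was at 0.00022 with no background subtraction, 0.034 under quantile normalization, 0.47 in the value table and up to 0.059 with 1 array left out (0.0099 without control 3, 0.024 without LIPUS 2). Spike-in scaling gave −0.13 for Tpm1 A_44_P320617, −0.21 for Des and −0.14 for Actn1 A_44_P540855. Tpm1 A_44_P475051 was at 0.066 in the value table. With the tilt block or the lower tilt set, Des was at −0.22 and Actn1 A_44_P540855 at −0.050. In the value table both settings gave −0.0038 for Des, 0.18 for Actn1 A_42_P659546 and −0.086 for Actn1 A_44_P540848. With 1 array left out, Des ran from −0.14 to 0.32 in the spot tables and reached −0.095, −0.0097 and −0.0027 in the value table, and Tpm1 A_44_P475051 ran from −0.071 to 0.20 in the value table. Tagln, Actg2, Tpm1 A_44_P134213, A_44_P320620 and Tpm2 A_44_P1042783 kept their sign in both sources under every alternative run. The cause of these changes was not tested. With no filter on dim probes, Calm2, Calm3, Coro1a, Pdlim5 and Abcc9 were not called (limma adjusted p 0.0806, 0.0818, 0.0627, 0.119 and 0.0670). Scaled to the array median, Pdlim5 was not called (limma adjusted p 0.0626).

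Replicate numbers gave no sign of pairing: same-numbered deviations correlated at 0.00075, 0.0082 and −0.015. This does not show that the samples were unpaired, which the labels leave unstated. With the replicate block 1241 probes were called in the spot tables and 0 of the contractile probes (smallest limma adjusted p 0.117, Actg2). The small number of arrays limits which differences can be called.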
